A study of Homo sapiens with 17 samples.

Results

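The nuclear genes for mitochondrial ribosomal proteins were examined in human pluripotent stem cells. The genes were taken from RefSeq as protein-coding genes whose symbol is MRPL or MRPS followed by a number. This gave 77 of 20037 protein-coding genes, 49 named MRPL and 28 named MRPS. The name alone does not settle the subunit to which each protein belongs. The rule used names only and no measured value. For each gene the highest-scoring summit within the gene and 1000 bp on each side was taken, and its value was expressed as a percentile, the percent of that library's summits that scored no higher. A gene with no summit had a percentile of 0.

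The libraries were CUT&Tag profiles, in which a transposase tethered to an antibody cuts DNA near the bound protein, of the H1 line, an established line of human pluripotent stem cells. Cells had received lentivirus with 1 of 2 shRNAs against HNRNPU (shHNRNPU#1 or shHNRNPU#2) or with an shRNA against luciferase (shLUC, the control), followed by puromycin, or were left untransfected. H3K4me1 and H3K27ac were each profiled in 4 shHNRNPU libraries (2 repeats per shRNA) and 2 shLUC libraries, POLIIS2P in 1 shHNRNPU#1 and 2 shLUC libraries, and HNRNPU in 2 libraries of untransfected cells, 17 in all. The label POLIIS2P is not spelled out in the sources used here. All libraries came from 1 line, and nothing states whether repeats were separate cultures, so p-values measure the spread between these libraries, which may be technical.

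The lists of the 6 H3K4me1 and 6 H3K27ac libraries cannot be read at face value. For the shLUC cells, each of the 4 histone-mark lists carried peak names with the other antibody than its title. At the mitochondrial ribosomal protein genes, the Spearman correlation of mean percentiles with H3K27ac of shHNRNPU cells was 0.92 for the libraries titled H3K4me1 shLUC and 0.37 for those titled H3K27ac shLUC (n = 77 genes, which share their libraries and their list lengths). With H3K4me1 of shHNRNPU cells the values were 0.35 and 0.94. Levels of the 2 marks are therefore described from the shHNRNPU libraries, and each shHNRNPU to shLUC comparison is given as titled and with the 2 antibody names exchanged. The lists held from 34649 to 214333 summits, and read depth was unknown. A percentile is relative to its own list, so differences between libraries are differences in rank within lists of unlike length. Of 9 pluripotency markers 8 or 9 had an H3K27ac summit in each shHNRNPU library, against 2 to 5 of 12 markers of other cell types.

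Mitochondria keep their own ribosome, which translates the few proteins encoded by mitochondrial DNA, all of them subunits of the respiratory chain and ATP synthase. Every protein of that ribosome is encoded in the nucleus, made in the cytosol and imported, so its genes are read by RNA polymerase II like other housekeeping genes. Some of the proteins descend from bacterial ribosomal proteins and others exist only in mitochondria. H3K27ac marks active promoters and enhancers, H3K4me1 marks enhancers and the flanks of promoters, and HNRNPU is an abundant nuclear RNA-binding protein.

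Promoter letters are shown first because most summits lay at the gene start. RefSeq promoter sequences (GRCh38.p14, 250 bases before to 50 after the start) were found for 69 of the 77 genes. The letters CCGGAAG, the core bound by ETS factors, occurred on either strand in 29 of the 69 (42.0%), against 14.2% of 15843 protein-coding promoters, and 2 or more copies occurred in 8 of 69 (11.6%), against 2.66%. The 5 genes with 2 or more copies in the 120 bases before the start are printed with the core in capitals, 5′ to 3′ on the gene's strand, from base -120 to base -1. MRPL20 (chr1:1407294-1407413, minus strand), MRPL27 (chr17:50373185-50373304, minus) and MRPL51 (chr12:6493263-6493382, minus) encode large-subunit proteins, and MRPS22 (chr3:139343874-139343993, plus) and MRPS34 (chr16:1773135-1773254, minus) small-subunit proteins.

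MRPL20: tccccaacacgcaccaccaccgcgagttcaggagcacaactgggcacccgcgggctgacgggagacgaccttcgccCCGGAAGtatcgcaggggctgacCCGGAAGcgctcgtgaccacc
MRPL27: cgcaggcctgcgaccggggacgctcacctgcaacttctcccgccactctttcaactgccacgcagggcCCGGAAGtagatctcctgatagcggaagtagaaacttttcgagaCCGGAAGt
MRPL51: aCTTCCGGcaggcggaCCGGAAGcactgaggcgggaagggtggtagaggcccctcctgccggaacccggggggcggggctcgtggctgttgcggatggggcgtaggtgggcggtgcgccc
MRPS22: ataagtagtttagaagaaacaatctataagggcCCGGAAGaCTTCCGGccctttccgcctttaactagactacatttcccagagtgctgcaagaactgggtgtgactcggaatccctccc
MRPS34: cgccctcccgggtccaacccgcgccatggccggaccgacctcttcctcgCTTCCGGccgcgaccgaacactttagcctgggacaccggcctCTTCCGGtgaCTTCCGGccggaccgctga

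A second shared run of letters lay just past the start. The YY1 core AAGATGGCG was found on either strand in 13 of 69 promoters (18.8%), against 2.74% of all. On the gene's own strand within the 50 bases after the start it was found in 10 of 69 (14.5%), against 1.76%. Its first base lay 7, 9, 9, 10 and 14 bases past the start in MRPL38, MRPL42, MRPL46, MRPS10 and MRPS30, counted with the start as base 1. In the sites not printed it lay at base 10 in MRPS18A, 20 in MRPS24, 24 in MRPL50 and MRPS18B and 36 in MRPL22. The sites of MRPL38, MRPL42, MRPL46, MRPS10 and MRPS30 are printed with 10 bases on each side and the core in capitals. They come from chr17:75904860-75904888 (minus), chr12:93467512-93467540 (plus), chr15:88467362-88467390 (minus), chr6:42217834-42217862 (minus) and chr5:44808950-44808978 (plus), all GRCh38.p14.

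MRPL38: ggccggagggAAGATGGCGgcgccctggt
MRPL42: ggattgaaacAAGATGGCGggttcgtggt
MRPL46: gggagaacgaAAGATGGCGgcgcccgtaa
MRPS10: cgggaccggcAAGATGGCGgcgcggacag
MRPS30: atcgcgggcaAAGATGGCGgcggccaggt

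In these sites the core holds the letters ATG, which are also those of a start codon. Both cores were present in 4 promoters and at least 1 in 38 of 69 (55.1%, against 16.3% of all promoters). Other letters were searched too. The GC box GGGCGG was present in 60.9% against 58.5%, the CCAAT box in 29.0% against 36.4%, TATAAA in 2.90% against 9.63%, the NRF1 core in 1.45% against 1.75%, and the NRF1 core with any base at its middle position in 11.6% against 8.58%. All motifs were searched on both strands. A match says only that the letters are there. Genes with an ETS core had a median mean percentile of 62.0 for H3K27ac, those without 80.7 (29 and 40 genes), while for HNRNPU the medians were 74.4 and 75.7 and for POLIIS2P 91.4 and 87.6.

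The genes were short and close to others. Their median length was 8618 bp, against 24115 bp for all protein-coding genes, and 44 of 77 (57.1%) had another protein-coding gene in the window, against 38.9%. Of the 69 with a start, 18 (26.1%) were head to head with another gene, meaning that a start on the opposite strand lay up to 1000 bp upstream or overlapped by up to 100 bp. The share was 10.5% for all genes, 14.5% for cytosolic ribosomal protein genes and 33.3% for nuclear oxidative phosphorylation genes. Partners included PSMA2 (a proteasome subunit, MRPL32), SARS2 (the mitochondrial seryl-tRNA synthetase, MRPS12), FAU (a cytosolic ribosomal protein, MRPL49) and TCP1 (a chaperonin subunit, MRPL18). MRPL46 and MRPS11 were head to head with each other, with starts 320 bp apart. In such pairs a summit cannot be assigned to 1 gene, and MRPL46 and MRPS11 had the same H3K27ac percentile in all 4 shHNRNPU libraries (92.3, 80.8, 78.3 and 75.6). In HNRNPU libraries 83.3% and 89.5% of the highest summits lay nearer the gene's own start than any other start.

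**Figure D1:**
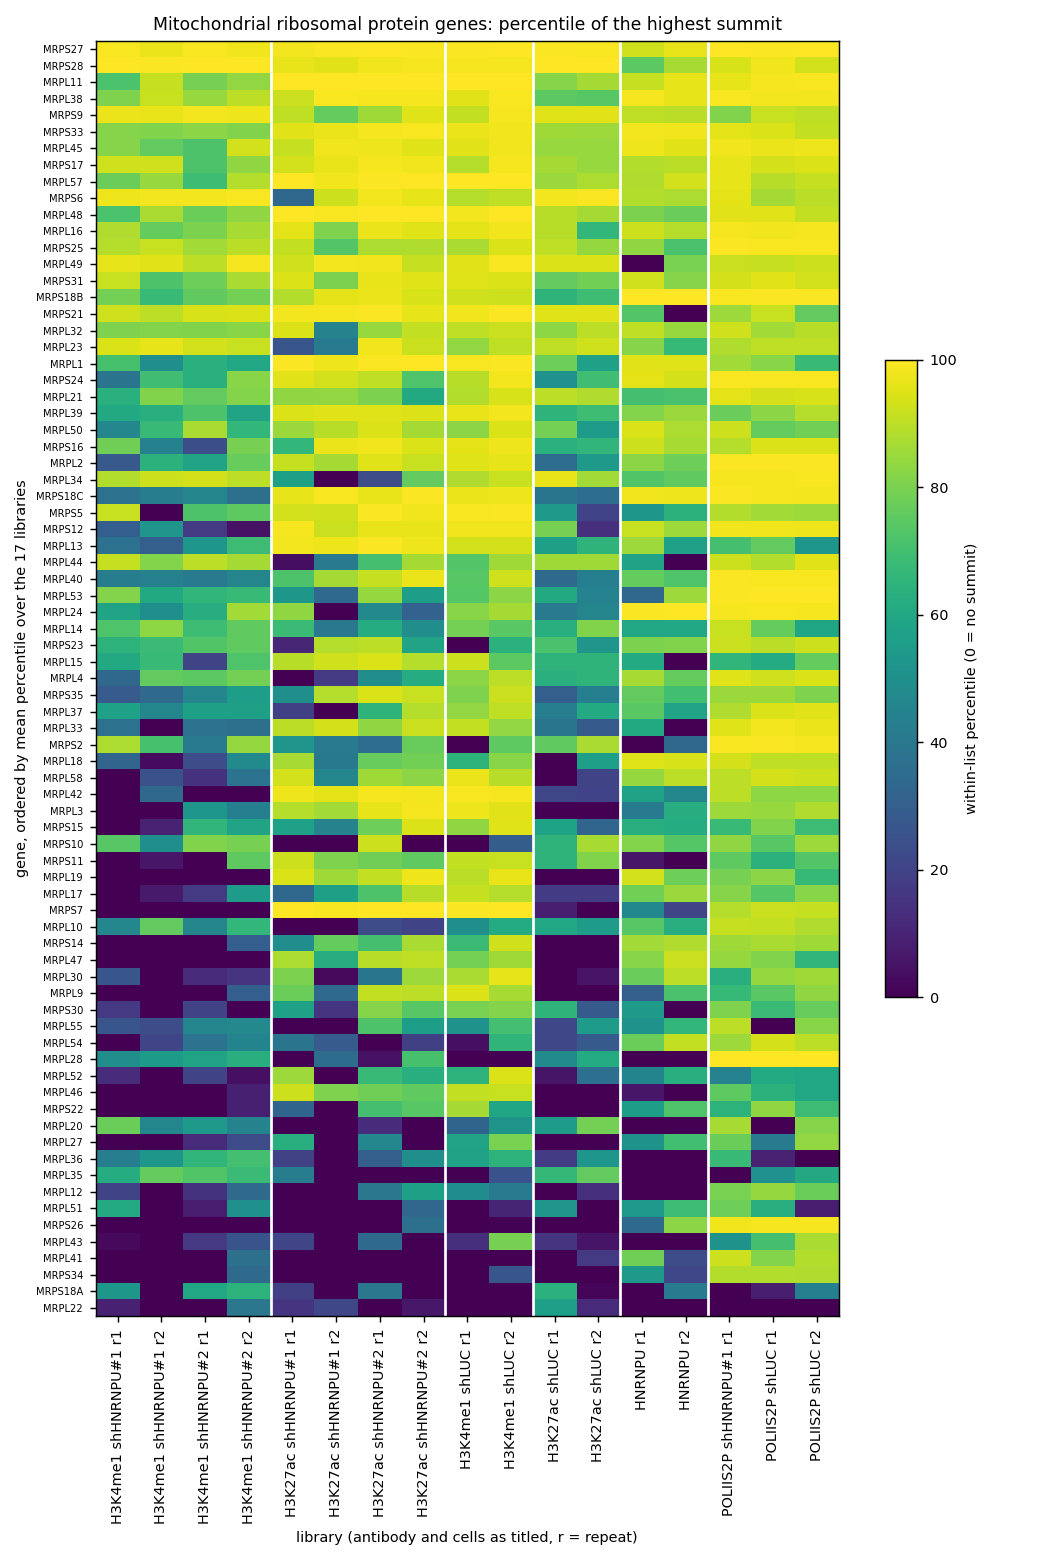
Percentile of the highest summit of each of the 77 genes (rows, ordered by their mean) in each of the 17 libraries (columns, named as titled). MRPS27 is at 92.8 or higher in every library, MRPL22 has no HNRNPU or POLIIS2P summit, and the columns titled H3K4me1 shLUC look like the H3K27ac shHNRNPU columns.

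H3K27ac ranked high at these genes. A summit was present in all 4 shHNRNPU libraries at 54 of 77 genes (70.1%, against 52.0% of all protein-coding genes), and the median percentile was 83.5 and 76.5 in the shHNRNPU#1 and 85.9 and 88.8 in the shHNRNPU#2 libraries, where all genes had 49.0, 34.1, 66.2 and 68.7. Because a longer gene has more room for a high summit, the start alone was also counted. A summit lay within 1000 bp of the start at 68.1% to 88.4% of the genes, against 32.7% to 48.3% of all genes. When genes were ranked against genes in place of summits, the median gene stood at 68.6 to 73.2, against 50 or just under by construction. H3K4me1 went the other way. It was present in all 4 libraries at 49 genes (63.6%, against 74.2%), with medians of 49.3 to 66.2 against 67.8 to 78.7. At the start alone, however, H3K4me1 was present at 62.3% to 87.0%, above the 52.3% to 68.0% of all genes.

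HNRNPU and POLIIS2P were present at most of the genes. HNRNPU was found in both libraries at 60 of 77 (77.9%, against 63.7%), with medians of 76.3 and 73.5 against 58.5 and 57.7. At 56 genes (72.7%, against 53.8%) the 2 repeats had a summit within 250 bp of each other. POLIIS2P was found in all 3 libraries at 71 genes (92.2%, against 68.3%), with medians of 89.4 to 89.9 against 75.6 to 77.2. H3K27ac, POLIIS2P and HNRNPU were all present in every library at 45 genes (58.4%, against 42.6%). The same held for 57.9% of nuclear oxidative phosphorylation genes and 69.8% of cytosolic ribosomal protein genes. The excess depended on the 1000 bp flanks. Without them HNRNPU was in both libraries at 24 of 77 genes (31.2%, against 40.6% of all), H3K27ac in all 4 at 28 (36.4%, against 41.9%) and POLIIS2P in all 3 at 44 (57.1%, against 56.6%). Within 1000 bp of the start the shares were 76.8% for HNRNPU, 62.3% for H3K27ac and 88.4% for POLIIS2P, against 49.2%, 26.2% and 50.8% of all genes with a start. None of these shares was tested.

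Other gene families for abundant complexes had similar values. Cytosolic ribosomal protein genes (86) had higher H3K27ac medians (85.7 to 92.7) and lower H3K4me1 medians (30.1 to 64.0) than the mitochondrial ones, and nuclear oxidative phosphorylation genes (76) lay close to the mitochondrial ones for HNRNPU and POLIIS2P. Among the mitochondrial ribosomal genes, 44 with a bacterial homologue and 27 specific to mitochondria had H3K27ac in 79.5% to 95.5% and 70.4% to 88.9% of genes per library.

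**Figure D2:**
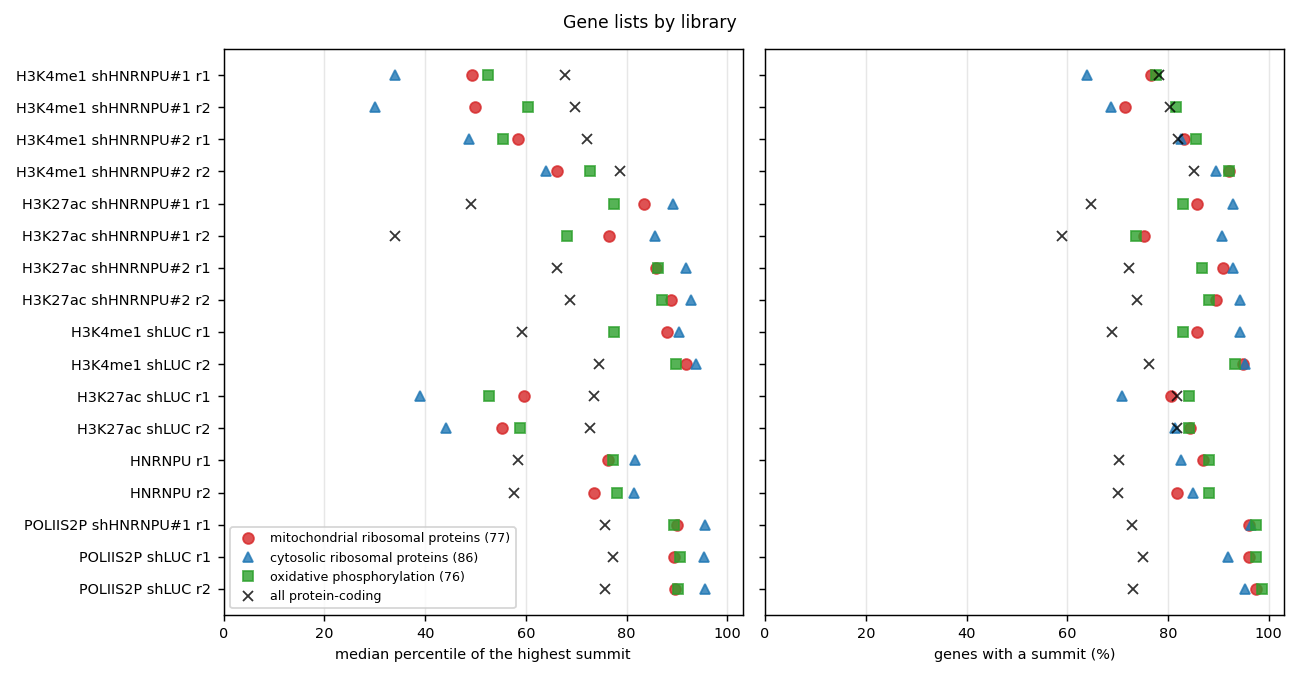
Median percentile of the highest summit (left) and percent of genes with a summit (right) in each library, for 4 gene lists. Mitochondrial ribosomal protein genes lie above all protein-coding genes in the left panel for H3K27ac of shHNRNPU cells, HNRNPU, POLIIS2P and the libraries titled H3K4me1 shLUC, and below them for H3K4me1 of shHNRNPU cells and the libraries titled H3K27ac shLUC.

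The highest summit lay at the start, most closely for HNRNPU. It was within 500 bp of the start at 96.5% and 98.3% of the genes in the 2 HNRNPU libraries (57 and 60 genes with both a start and a summit), against 59.0% to 59.6% of all genes and 80.7% to 82.1% of cytosolic ribosomal protein genes. For H3K27ac of shHNRNPU cells the share was 81.4% to 84.1% (all genes 35.7% to 40.0%), for POLIIS2P 68.7% to 73.1% (42.9% to 45.2%) and for H3K4me1 61.7% to 66.1% (at most 30.3%). A shorter gene leaves less room for a distant summit, and the part of length in these shares was not tested. For POLIIS2P the share of cytosolic ribosomal protein genes within 500 bp was 40.0% to 43.3%, with a median distance of 3288 to 3695 bp against 155 to 190 bp. Nuclear oxidative phosphorylation genes lay close to the mitochondrial ribosomal ones, with 67.7% to 72.1% and 141 to 200 bp for POLIIS2P. Their shares within 500 bp were 87.5% for HNRNPU, 74.5% to 81.1% for H3K27ac and 60.4% to 69.4% for H3K4me1. Of the HNRNPU summits within 500 bp, 69.5% and 61.8% lay upstream of the start, close to the 65.7% and 65.8% of all genes. Of the H3K27ac summits 38.5% to 53.5% lay upstream, against 50.2% to 51.6%.

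**Figure D3:**
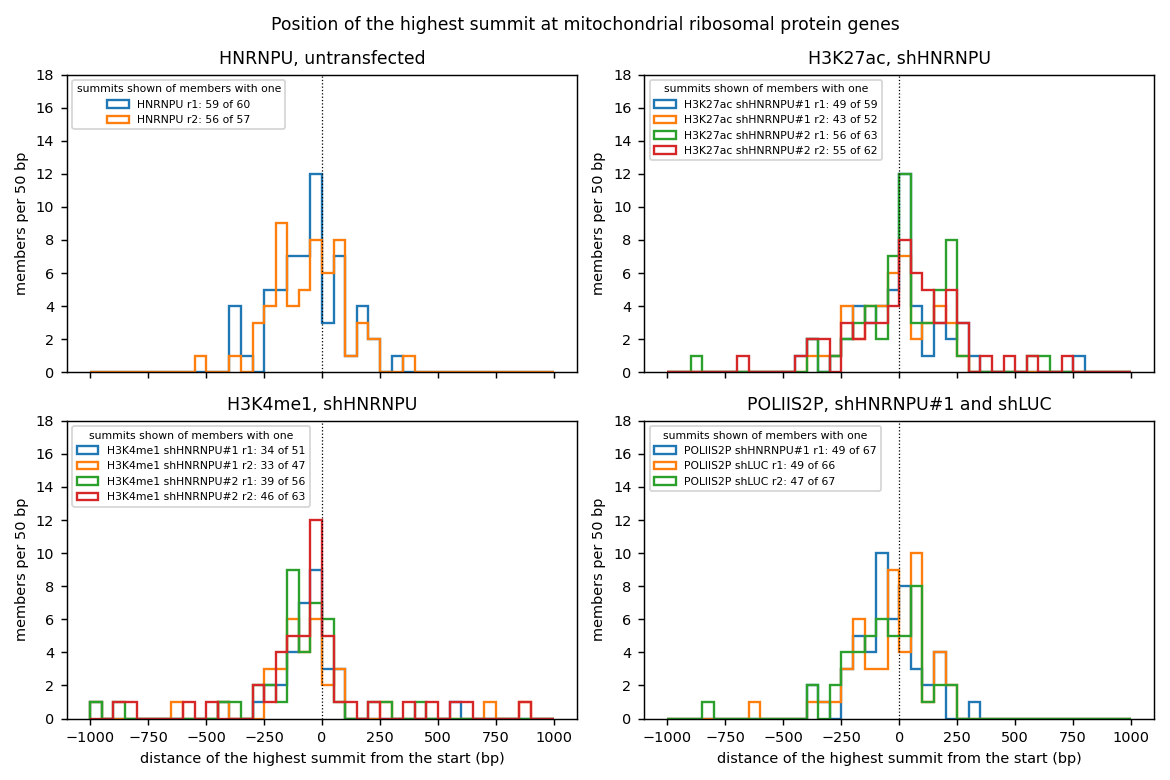
Distance of each gene's highest summit from its start in bp (negative is upstream), counted in bins of 50 bp for each library of 4 antibodies, with summits beyond 1000 bp left out of the plot and counted in the legends. HNRNPU summits are the most closely gathered at the start, with 59 of 60 and 56 of 57 within the plotted range.

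A few long genes held their highest summit far inside. MRPS27, a pentatricopeptide-repeat protein of the small subunit (chr5:72219403-72320240, minus strand), had H3K4me1 at 99.0, 97.1, 98.9 and 98.0 and H3K27ac at 98.4, 99.4, 99.6 and 99.5 in the shHNRNPU libraries. Its H3K4me1 summit lay 75062 or 75063 bp past the start in all 4 libraries and its H3K27ac summit 11789 to 11890 bp past it. HNRNPU was elsewhere, at -154 bp from the start in both libraries (negative is upstream). In MRPS9 (chr2:105038069-105099960, plus strand) the H3K4me1 summit lay 42996 to 43000 bp past the start at percentiles of 96.6 to 98.1, and in MRPS6 (chr21:34073578-34143030, plus) 55668 or 55669 bp past it at 97.5 to 98.8. HNRNPU lay close to the start in both genes, at 226 and 87 bp in MRPS9 and at -237 and -285 bp in MRPS6. The MRPS6 window also holds SLC5A3.

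The stalk of the large subunit, where translation factors dock, gave unlike values for its 3 proteins. MRPL11 had H3K27ac at 99.9, 99.9, 99.9 and 99.8 in the shHNRNPU libraries, the highest mean of all 77 genes, HNRNPU at 91.3 and 96.1, and POLIIS2P at 96.4 in shHNRNPU#1 and 98.5 and 98.9 in shLUC. MRPL12 had no H3K27ac summit in either shHNRNPU#1 library and 39.8 and 56.9 in the shHNRNPU#2 libraries, no HNRNPU summit, and POLIIS2P at 80.0, 84.3 and 77.4. MRPL10 had no H3K27ac summit in the shHNRNPU#1 libraries and 23.2 and 20.7 in the shHNRNPU#2 libraries, with HNRNPU at 74.1 and 62.8. So 1 of the 3 stalk genes was near the top for H3K27ac and the other two near the bottom, while all 3 carried POLIIS2P.

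The core proteins MRPL3 and MRPL4, around the peptidyl transferase centre and exit tunnel, had summits in most libraries. So did MRPL45, MRPL44 and MRPL58, which were chosen for other roles in the large subunit. MRPL3, a homologue of bacterial L3, had H3K27ac at 88.8, 86.1, 96.3 and 98.6 and HNRNPU at 40.9 and 62.4. MRPL4 had H3K27ac at 0, 17.1, 49.3 and 61.9 and HNRNPU at 87.0 and 76.6. MRPL45, which helps to tether the ribosome to the inner membrane, had H3K27ac at 91.0, 97.7, 97.6 and 95.2 and HNRNPU at 97.3 and 95.4, so it ranked high for both. MRPL44, a protein with a ribonuclease III-like fold, had H3K27ac at 3.61, 41.0, 70.4 and 86.4 and HNRNPU at 57.7 and 0. MRPL58 (ICT1), a peptidyl-tRNA hydrolase built into the ribosome, had H3K27ac at 93.2, 46.1, 85.7 and 82.7 and HNRNPU at 84.1 and 89.9.

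Proteins near the decoding site also differed. MRPS12, a homologue of bacterial S12 that is head to head with SARS2 (181 bp between the starts), had H3K27ac at 98.5, 91.9, 96.6 and 96.8, HNRNPU at 91.6 and 85.3, and POLIIS2P at 98.0, 98.0 and 97.5. MRPS7 had H3K27ac at 99.9, 99.2, 99.9 and 99.7, yet no H3K4me1 summit in any of the 4 shHNRNPU libraries. Its HNRNPU percentiles were 46.5 and 21.1. MRPS5 had H3K27ac at 93.1, 92.8, 99.4 and 97.8 and HNRNPU at 53.1 and 64.4. Apart from these decoding-side proteins, MRPS30 had H3K27ac at 57.1, 15.0, 82.0 and 74.0 and HNRNPU at 54.0 and 0.

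The 3 paralogs of bacterial S18 stood at both ends. MRPS18B (chr6:30617840-30626392, plus strand) had the highest HNRNPU percentiles of the 77 genes, 99.8 in both libraries, with summits at -359 and -285 bp from the start. PPP1R10, a regulatory subunit of protein phosphatase 1, starts 597 bp from it on the other strand. MRPS18C had HNRNPU at 97.8 and 97.4. MRPS18A had HNRNPU at 0 and 40.9 and H3K27ac at 18.8, 0, 39.6 and 0, and its POLIIS2P percentiles of 0, 8.35 and 43.3 were among the lowest. The YY1 core was in the 50 bases after the start of both MRPS18A and MRPS18B, which lie at opposite ends for HNRNPU.

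The other genes with the highest HNRNPU means were MRPL24 (99.3 and 99.7), MRPS33 (98.2 and 98.0) and MRPL38 (98.5 and 96.4). At MRPL24 (chr1:156737303-156742716, minus) the HNRNPU summits lay 2 and 53 bp past the start and the POLIIS2P summits 50 to 58 bp past it, while H3K27ac was at 83.5, 0, 47.1 and 31.6. At MRPS33, with no other protein-coding gene in its window, the HNRNPU summits lay at -43 bp in both libraries and the H3K27ac summits 41 bp past the start in all 4 shHNRNPU libraries. Promoters of the first 2 HNRNPU-ranked genes, shown because they carry the highest HNRNPU values, hold no ETS core in the 120 bases before the start and are printed from base -120 to base -1 with no capitals (chr6:30617720-30617839, plus, and chr1:156741089-156741208, minus).

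MRPS18B: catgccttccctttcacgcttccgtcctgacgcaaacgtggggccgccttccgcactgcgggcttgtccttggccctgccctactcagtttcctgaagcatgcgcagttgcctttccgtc
MRPL24: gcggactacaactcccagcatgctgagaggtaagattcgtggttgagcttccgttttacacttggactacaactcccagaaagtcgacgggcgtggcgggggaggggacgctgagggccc

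HNRNPU had no summit in either library at 7 genes (9.09%, against 23.4% of all genes), MRPL12, MRPL20, MRPL22, MRPL28, MRPL35, MRPL36 and MRPL43, all named MRPL. The deposited series-wide list of 48095 HNRNPU intervals, without scores, overlapped 70 of the 77 windows (90.9%, against 76.4% of all). POLIIS2P was in all 3 libraries and HNRNPU in neither at 3 of the 77 genes, MRPL12, MRPL28 and MRPL43 (3.90%, against 4.09% of all genes). MRPL28 had POLIIS2P at 99.9 in shHNRNPU#1 and 99.8 in both shLUC libraries, at -19, 26 and 30 bp from the start, and no HNRNPU. After MRPL28, the highest POLIIS2P means were those of MRPL53, MRPS27, MRPL2 and MRPS25 (99.2 to 99.7). At MRPS25 the POLIIS2P summits lay 13636 to 13638 bp past the start used. The other antibodies gathered there too, with HNRNPU at 13610 and 13617 bp. In shHNRNPU cells H3K27ac lay at 13326 to 13639 bp and H3K4me1 at 13564 to 13632 bp. MRPL22 had no POLIIS2P summit in any library, and after it MRPS18A, MRPL36, MRPL35 and MRPL51 had the lowest POLIIS2P means (17.2 to 49.8).

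H3K27ac was missing in all 4 shHNRNPU libraries at MRPL41 and MRPS34, where POLIIS2P was at 81.4 to 92.5 and at 88.0 to 88.6. Genes with POLIIS2P in all 3 libraries and no H3K27ac summit made up 2.60% of the 77 and 3.52% of all genes. The next lowest H3K27ac means were those of MRPL20, MRPL51 and MRPS26 (3.17, 8.24 and 9.20), and MRPS26 had POLIIS2P at 97.7, 98.6 and 98.5. MRPL20, MRPL51 and MRPS34 are 3 of the 5 genes whose repeated ETS cores are printed above. Other genes with 2 or more ETS cores were not all low. MRPL27 had an H3K27ac mean of 27.4, MRPL53 had 56.7, and MRPL58 had the higher values given above. MRPL41 has no ETS core, and a link was not tested. After MRPL11 and MRPS7, the highest H3K27ac means were those of MRPL48, MRPS27 and MRPL57 (99.2 to 99.5). H3K4me1 was missing in all 4 shHNRNPU libraries at MRPL19, MRPL47, MRPS7 and MRPS26. In 3 of these, MRPL19, MRPL47 and MRPS7, H3K27ac was present in all 4 (3.90% of the 77 genes, against 0.609% of all genes). The share was similar for cytosolic ribosomal protein genes (4.65%) and nuclear oxidative phosphorylation genes (3.95%).

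Whether shHNRNPU altered the marks at these genes was asked with limma, over all genes with a summit in at least 2 of the 6 libraries of a comparison. The value was the log2 of the top share, the percent of the list scoring at least as high, with the sign set so that a positive difference is a higher rank in shHNRNPU. As titled, H3K4me1 was higher at 5 and lower at 43 of 75 genes tested (background 32.0% and 21.9%), and H3K27ac was higher at 24 and lower at 5 of 74 (background 10.8% and 34.6%). The median percentile difference was -19.8 for H3K4me1 (all genes 1.61) and 11.6 for H3K27ac (all genes -6.17). The 5 with higher H3K4me1 were MRPL28, MRPL35, MRPS6, MRPS10 and MRPS28, and the 5 with lower H3K27ac were MRPL10, MRPL20, MRPL34, MRPL35 and MRPS28. Some genes had summits in only 1 condition, so the filter fixed their direction, and such calls give no support. For H3K27ac, MRPL3, MRPL19, MRPL46, MRPL47 and MRPS14, all called higher, had no summit in either titled shLUC library. For H3K4me1, MRPL28 had none in either titled shLUC library, and MRPL19, MRPL47 and MRPS7 none in any shHNRNPU library. The background holds such genes too. In this comparison the titled antibody and the condition cannot be told apart for the 4 shLUC libraries. Without the titled H3K27ac shLUC replicate 1 or replicate 2, the 29 H3K27ac calls became 13 or 15. The background split depended on the scale. For H3K4me1 it turned to 1651 higher and 4183 lower of 10632 genes with the 20000 highest summits. At the start alone it was 1619 and 3563 of 11507 genes. Of the 77 genes, 1 was higher and 45 lower of 52 tested with the 20000 highest summits, and 2 and 44 of 67 at the start alone. Lower calls then outnumbered higher ones among all genes too, though the lower share was larger among these genes. For H3K27ac the background was 2429 higher and 4463 lower of 17289 genes by rank among genes, and 2079 and 1749 of 11157 with the 20000 highest summits. Of the 77 genes, 30 were higher and 2 lower of 74 tested by rank among genes, and 23 and 1 of 49 with the 20000 highest summits.

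MRPS7 gave the smallest p for H3K4me1 as titled. It had no summit in the 4 shHNRNPU libraries and 99.5 and 99.9 in the titled shLUC libraries (log2 difference -8.52, SE 0.59, limma adjusted p = 1.27e-06). It passed the filter only through those shLUC libraries, and its 4 shHNRNPU values were the assigned floor. The filter thus fixed the direction, and this p gives no support for a difference. MRPL11 gave the smallest p for H3K27ac as titled, with 99.8 to 99.9 in shHNRNPU and 81.7 and 86.4 in the titled shLUC libraries (log2 difference 7.21, SE 0.61, limma adjusted p = 0.000498). The groups did not overlap at MRPL11, and at MRPS7 that outcome was fixed by the filter. The next 9 for H3K4me1 were MRPL11, MRPL42, MRPL57, MRPL1, MRPS12, MRPL46, MRPS18C, MRPL19 and MRPL3, all lower. MRPL19 also had no summit in the 4 shHNRNPU libraries, so the limit given for MRPS7 holds for it too. MRPL42 and MRPL46 had a summit in only 1 of the 4, so they also passed the filter only through the titled shLUC libraries. The next 9 for H3K27ac were MRPS7, MRPL42, MRPL13, MRPS18C, MRPL39, MRPL48, MRPL1 and MRPL19, all higher, and MRPL20, which was lower. MRPL19 had no summit in either titled H3K27ac shLUC library. It passed the filter only through the shHNRNPU libraries, so its direction was fixed and its p gives no support. MRPL20 had a summit in only 1 of the 4 shHNRNPU libraries, so it passed only through the titled shLUC libraries.

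With the names exchanged, limma called no gene of the 77. For H3K4me1 it called 0 of 68 tested (background 0.00583% in each direction), and 3 passed an unadjusted p of 0.05 (4.41%, background 5.93%). For H3K27ac it called 0 of 75 (background 0.0% in each direction), and 6 passed unadjusted (background 6.21%). The median percentile difference was 0.834 for H3K4me1 (all genes 0.000) and -3.93 for H3K27ac (all genes -1.48). A p above the threshold with 4 libraries against 2 does not show that levels were equal.

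The 3 smallest p for H3K27ac with the names exchanged were at MRPL4, MRPL34 and MRPL10, all lower in shHNRNPU. MRPL4 had the values given above in shHNRNPU, at most 61.9, and 82.6 and 90.1 in the exchanged shLUC libraries (log2 difference -2.27, SE 0.74, limma adjusted p = 0.699). MRPL34, a homologue of bacterial L34, had 56.8, 0, 22.9 and 76.2 against 88.1 and 91.7 (log2 difference -2.42, SE 0.84, limma adjusted p = 0.724). MRPL10 had at most 23.2 against 49.8 and 61.7 (log2 difference -1.01, SE 0.38, limma adjusted p = 0.724). These 3 genes were picked for their small p, which favours groups that do not overlap, and none of them passed the test.

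For H3K4me1 with the names exchanged the 3 smallest p were at MRPS30, MRPS11 and MRPL21. MRPS30 had 16.7, 0, 20.6 and 0 in shHNRNPU and 65.0 and 28.5 in the exchanged shLUC libraries (log2 difference -0.83, SE 0.30, limma adjusted p = 0.738). MRPS11 had 0, 5.87, 0 and 75.2 against 65.0 and 81.2 (log2 difference -1.44, SE 0.53, limma adjusted p = 0.738), so its groups overlapped. MRPL21 had 63.3, 80.9, 75.9 and 81.3 against 90.1 and 88.3 (log2 difference -1.14, SE 0.53, limma adjusted p = 0.835).

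**Figure D4:**
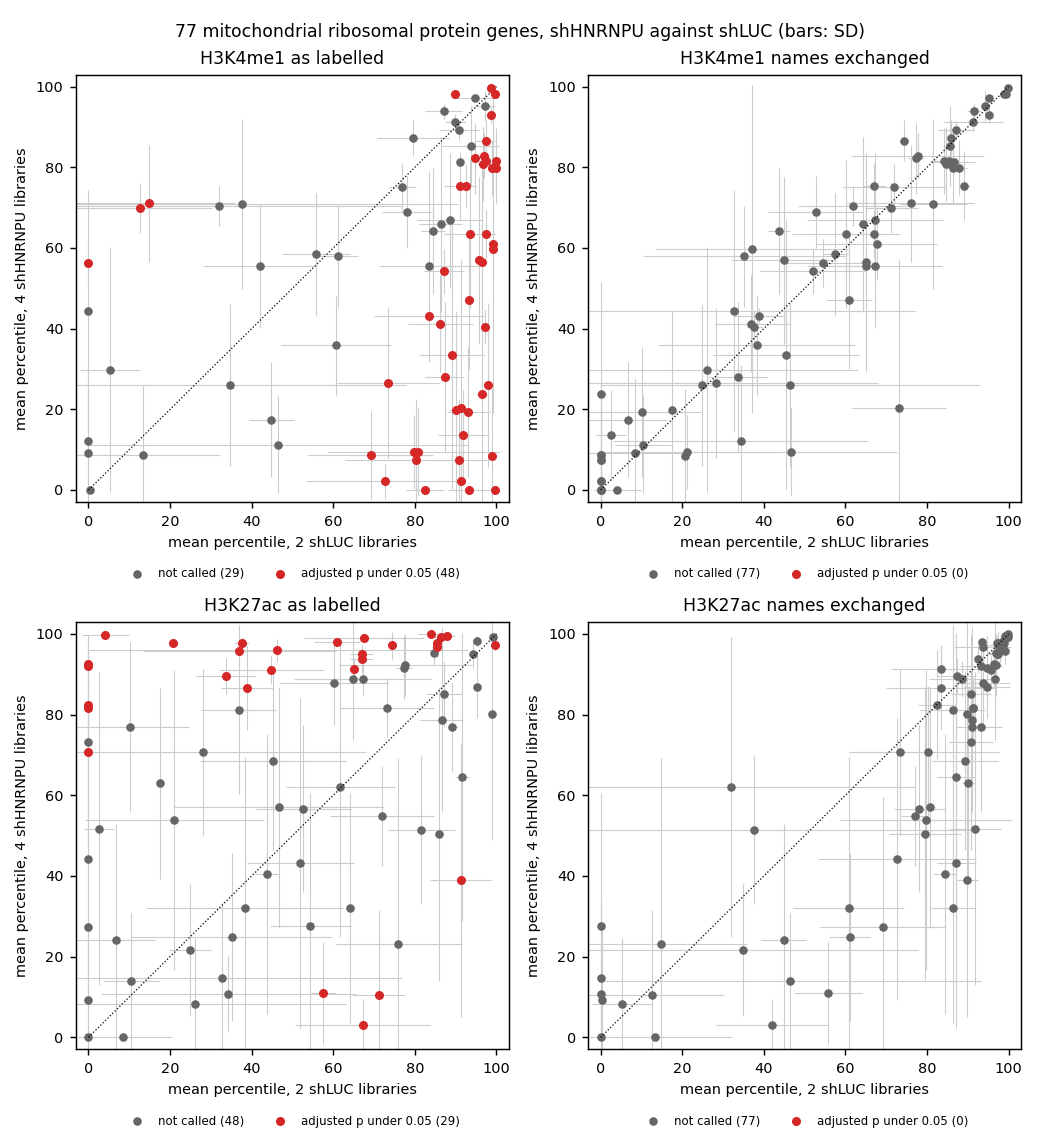
Mean percentile in the 4 shHNRNPU libraries against the mean in the 2 shLUC libraries for each of the 77 genes, with SD bars and genes past the limma threshold in red, for both marks as titled (left) and with the names exchanged (right). As titled 48 and 29 genes are called, and with the names exchanged none is and the points lie nearer the diagonal.

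The 2 shRNAs were also compared with each other, a comparison added after the data were seen that uses no shLUC library. limma called 0 of 66 genes for H3K4me1 and 0 of 70 for H3K27ac, with 3 and 11 at an unadjusted p under 0.05 (background 9.76% and 14.2%). The smallest p were at MRPS15 for H3K4me1 (0 and 9.93 with shHNRNPU#1, 65.9 and 58.5 with shHNRNPU#2, limma adjusted p = 0.332) and at MRPL23 for H3K27ac (26.8 and 41.3, then 97.9 and 92.0, limma adjusted p = 0.307). The shHNRNPU#1 H3K27ac lists were shorter (51655 and 40487 summits) than those of shHNRNPU#2 (75264 and 85142).

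POLIIS2P had 1 library of shHNRNPU#1 cells, so no test was made and a gene counted as different when it lay more than 5 percentile points outside both shLUC values. Of 76 genes with a summit, 9 were higher and 10 lower (11.8% and 13.2%, background 12.3% and 16.5%). The median difference from the shLUC mean was 0.333, and the median gap between the 2 shLUC libraries was 2.21. The 5 furthest above the nearer shLUC value were MRPL36 (67.4, against 9.64 and 0), MRPL14 (91.4, against 76.3 and 59.2), MRPL51 (78.1, against 63.2 and 8.13), MRPL50 (92.5, against 76.5 and 78.8) and MRPL46 (75.3, against 64.1 and 59.8). The 5 furthest below the nearer shLUC value were MRPL35 (0, against 50.6 and 60.2), MRPL30 (62.6, against 84.2 and 85.6), MRPL43 (51.3, against 70.4 and 87.2), MRPL52 (44.2, against 61.2 and 60.0) and MRPS9 (81.1, against 91.7 and 90.3). At MRPL14 and MRPL51 the 2 shLUC libraries differed by more than the shHNRNPU#1 library differed from the nearer of them.

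**Figure D5:**
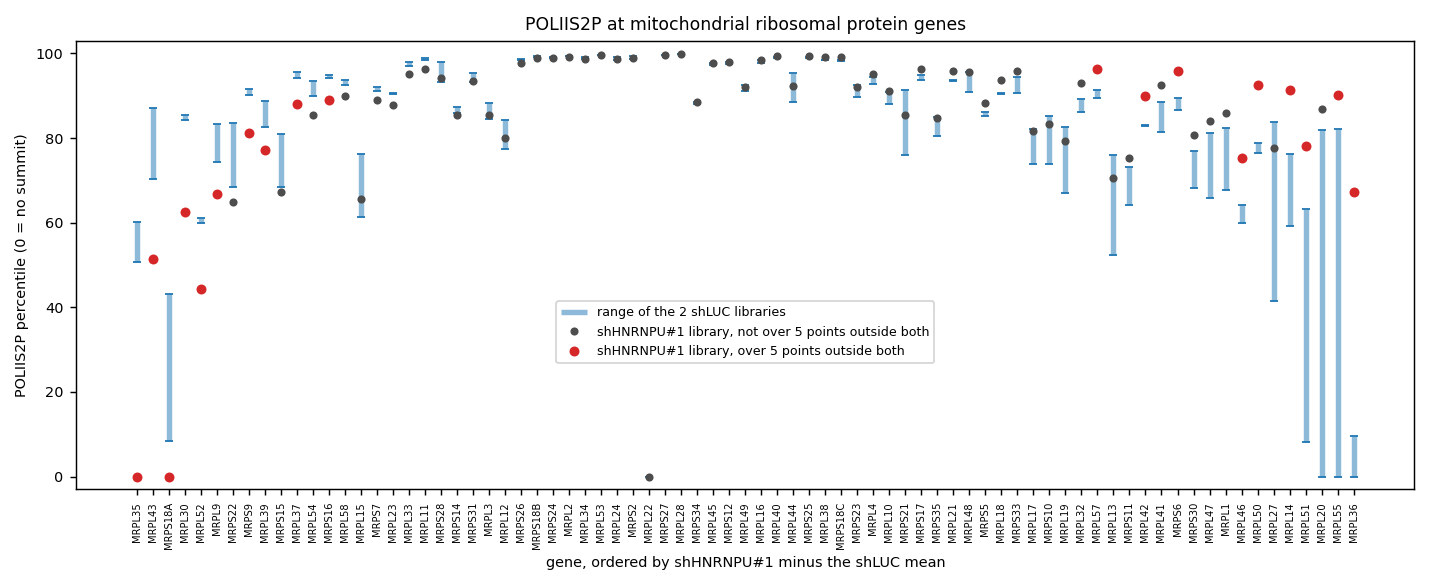
POLIIS2P percentile of each of the 77 genes in the shHNRNPU#1 library (points, red where over 5 points outside both shLUC values) and the range of the 2 shLUC libraries (bars). The genes near 100 show narrow bars, and of those outside the bars 9 are above and 10 below.

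Genes of the rest of mitochondrial gene expression were counted in the same fits. The lists held 13 translation factors, 25 ribosome assembly factors, 17 mitochondrial aminoacyl-tRNA synthetases, 10 genes of mitochondrial transcription, and 6 ribosomal proteins with other names such as DAP3. With the names exchanged none was called for either mark. As titled, H3K4me1 was lower at 7 of 13, 12 of 24, 9 of 17, 6 of 10 and 4 of 5 tested (background 21.9%), and H3K27ac was higher at 2 of 13, 6 of 25, 6 of 17, 5 of 10 and 3 of 5 (background 10.8%). In the opposite direction H3K4me1 was higher at 1 assembly factor (MRM1) and 4 synthetases (FARS2, LARS2, PARS2 and VARS2), and H3K27ac was lower at 1 assembly factor and 2 synthetases. POLIIS2P was present in every library at all 13 translation factors, 17 synthetases, 10 transcription genes and 6 ribosomal proteins with other names. It was present in every library at 24 of 25 assembly factors, against 68.3% of all protein-coding genes.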

How the data were processed

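The members and the gene lists were chosen with earlier results of these data known. Each library had 1 deposited list of summits, each with a score read as −log10 of a p-value or q-value as deposited by the authors, because histone lists start at 2.00 and the others at 1.30 and no list holds a lower score. A further deposited list gave 48095 intervals of 400 bp with a constant score and was used for position only. The submitters' processing notes name cutadapt, Bowtie2, SAMtools, MACS2, deepTools and the build hg38, without roles or versions. The paper listed with the series describes other cells, so its methods were not used. Gene positions and promoter letters came from RefSeq (GRCh38.p14), with the first start listed per gene. Starts were found for 15843 of 20037 genes.

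Percentiles were computed with Python 3.11.15, and limma 3.58.1 (R 4.3.3) with trend was fitted to log2 of the top share (100 where a gene has no summit), Benjamini-Hochberg adjusted over all genes tested with a threshold of 0.05. The fit was tested on simulated data. Groups followed the titles. Between repeats, 2.15% to 8.70% of summits coincided to the base, so none was a copy. Read depth is unknown, so no interval is given.

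Genes named with values were those called (up to 10 per comparison by p), the 3 smallest p where none was called, the 5 highest and 5 lowest means for HNRNPU, POLIIS2P and H3K27ac, genes without a summit of an antibody, the 5 furthest each way in POLIIS2P, and genes chosen for their role. MRPS6, MRPS9, MRPS10, MRPS15, MRPS28, MRPL23, genes outside the 77 and the partner genes were named after their values were seen. The alternatives were the percentile itself, the 20000 highest summits, ranks among genes, the gene without flanks, the start alone, a minimum score of 5, no filter, a replicate block, each shRNA alone and each library left out.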

Additional observations from a re-analysis of the deposited data

Results flagged for a closer look

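In 7 of 42 groups of 4 shHNRNPU libraries, 1 library stood far from the other 3 by Dixon's test, which flags about 1 in 20 groups by chance where values have no floor. For H3K4me1 these were MRPL4 in shHNRNPU#1 replicate 1 (33.35, the lowest) and MRPS11 in shHNRNPU#2 replicate 2 (75.21, the highest). For H3K27ac, MRPL48 (98.84) and MRPL57 (97.78) were lowest in shHNRNPU#1 replicate 2. MRPL20 had its 1 H3K27ac summit in shHNRNPU#2 replicate 1 (12.7). MRPL51 (32.97) and MRPS26 (36.82) had theirs in shHNRNPU#2 replicate 2. The last 3 genes had no summit in the other 3 libraries, where the value is 0 by definition, so any single summit is flagged and the chance rate does not apply. shHNRNPU#1 replicate 2 had the shortest H3K27ac list (40487 summits) and shHNRNPU#2 replicate 2 the longest (85142), and the part of list length in these values was not tested.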

How the results depend on the processing

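With the names exchanged, no alternative that kept both shLUC libraries called any of the 77 genes for either mark. The median difference moved by less than the SD of the median percentile over the 4 shHNRNPU libraries (8.01 for H3K4me1 and 5.25 for H3K27ac). That SD pools both shRNAs and is not a spread between replicates. The sign of the median difference changed for H3K4me1 (0.834, -1.09 with shHNRNPU#1 alone and 2.97 with shHNRNPU#2 alone). As titled, 36 to 47 genes were called for H3K4me1 and 13 to 33 for H3K27ac when 1 library was left out, and the H3K27ac count was 18 without the 1000 bp flanks. The median difference as titled ranged over left-out libraries from -21.5 to -16.4 for H3K4me1 and from 10.6 to 12.7 for H3K27ac. With the 20000 highest summits these medians were -48.9 and 31.8, and at the start alone -30.2 and 17.4. For H3K27ac it was 24.5 by rank among genes and 18.4 with shHNRNPU#2 alone. Exchanged medians ranged from -0.526 to 1.35 and from -8.54 to -1.48 over left-out libraries. The POLIIS2P median difference was 1.25 with the 20000 highest summits, 1.32 by rank among genes, 0.000 without the flanks, and 0.113 to 0.201 with 1 shLUC library. HNRNPU was present in both libraries at 24 genes without the flanks (31.2%, against 40.6% of all genes), and in 63 or 67 with 1 library. The cause was not tested. The replicate numbers did not pair the libraries (correlations of deviations from -0.027 to 0.021). The fit with the replicate block called 49 and 27 genes as titled and 0 and 0 exchanged. Over all genes as titled, H3K27ac calls went from 1874 higher and 5989 lower to 737 and 2673 without shLUC replicate 1, 699 and 2637 without shLUC replicate 2, 2086 and 3134 on the percentile scale, 1634 and 2918 at the start alone, and 2079 and 1749 with the 20000 highest summits. H3K4me1 calls went from 5587 higher and 3821 lower to 1651 and 4183 with the 20000 highest summits and 1619 and 3563 at the start alone. Exchanged calls over all genes numbered from 0 to 3 for H3K4me1 and from 0 to 4 for H3K27ac. Members with and without another gene in the window, a split added after the data were seen, had HNRNPU in both libraries at 79.5% and 75.8%. The unknown read depth limits every comparison of lists of unlike length.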

Other observations

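Across the 77 genes the Spearman correlation of mean percentiles was 0.49 between HNRNPU and POLIIS2P and 0.50 between HNRNPU and H3K27ac of shHNRNPU cells, against 0.73 and 0.68 over all 20037 protein-coding genes, which share libraries and include genes with no summit. Head-to-head genes (18) had a median mean percentile of 83.9 for HNRNPU and 81.7 for H3K27ac, and the other genes with a start (51) had 72.7 and 73.1. For H3K4me1 the order was the opposite, 41.8 and 56.5. Genes with the YY1 core (13) had an HNRNPU median of 54.1, against 75.8 for the other 56 with a promoter sequence, a POLIIS2P median of 80.8 against 91.1, and an H3K27ac median of 78.7 against 78.5. None of these values was tested.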
